A study of Mus musculus with 3 samples.

Results

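Transcript counts of 37 genes for Polycomb proteins, histone deacetylases and other chromatin regulators were followed in single cells of the mouse blastocyst. The genes were taken by name, and all 37 were found among the 23154 gene symbols of each library. The embryos, from mice carrying the Klf2-H2B-mCherry reporter, were taken on embryonic day 2.5 and kept in static and shaking culture; at the blastocyst stage, labelled embryonic day 3.5, cells of mCherry-positive embryos were picked by hand. The 3 libraries of 96 cell barcodes, here replicates 1 to 3, carry the same labels and form 1 group. Static and shaking cells are not told apart by the labels, no reporter value per cell is given, and nothing says whether libraries came from different embryos or mice. No culture contrast could therefore be made. The p-values reflect only how far differences between cell classes vary from library to library, which may be technical. Oligo(dT) primers held a cell barcode and a molecular identifier of 8 nt each, and 3' ends were sequenced. A level is given as CPM, counts of a gene per 1000000 counts, not divided by transcript length, so levels of different genes were not ranked against each other.

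Chromatin regulators of this kind work as complexes. Polycomb repressive complex 2 (PRC2) methylates histone H3 and Polycomb repressive complex 1 (PRC1) ubiquitinates histone H2A, and both keep developmental genes silent. Histone deacetylases act inside corepressor complexes such as NuRD, Sin3 and CoREST, while BAF, ISWI and CHD remodellers use ATP to move or evict nucleosomes. In the blastocyst these complexes act while the trophectoderm (TE), the fluid-pumping outer epithelium, separates from the inner cell mass (ICM), the source of the embryo proper.

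Barcodes with a count in 2000 or more genes were taken as cells, 225 of 288 in all, or 83, 64 and 78 per library. Library totals were 30573711 to 54444536 counts and median totals per cell 286484 to 608734. The same 96 barcode numbers occur in every library, and no 2 cells held identical counts. Clustering on 53 marker genes, none of them among the 37, gave 103 ICM-like cells (36, 31 and 36 per library), 79 TE-like cells (26, 22 and 31) and 43 cells left unnamed (21, 11 and 11). The ICM-like cluster was led, by mean log2 difference, by Spic, Tdgf1, Epha4 and Tdh and the TE-like cluster by Id2, Dppa1, Tspan8 and Gata3. The 17 TE markers summed to 5757, 6939 and 8368 CPM in TE-like cells against 537, 1133 and 846 CPM, and the 6 ICM markers to 387, 70.2 and 189 CPM against 1320, 839.6 and 1072 CPM. Sox2, an ICM and epiblast regulator, and the TE marker Lcp1 were listed at 0 in all cells. Of 8 blood markers, the hemoglobin genes and Tyrobp were listed at 0. A list of 8 cumulus and granulosa genes, made up here mostly of Nr5a2 and Amhr2, summed to 143, 311 and 186 CPM in TE-like cells against 329, 439 and 335 CPM, with Foxl2, Inhba and Ptgs2 at 0; its part in the class differences was not tested. Ribosomal protein genes took 4.50% and 4.99% of the counts of TE-like and ICM-like cells in replicate 2, against 13.7% to 21.6% in the other libraries.

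Of the 37 genes, 2 differed between the classes: Hdac1, a class I deacetylase of the NuRD, Sin3 and CoREST complexes, and Smarca5, the ATPase of ISWI remodellers. Both were lower in TE-like cells. The other 35 did not pass edgeR's quasi-likelihood test, run on cells summed per class and library with the library as a block, at a Benjamini-Hochberg adjusted p below 0.05. Over all 12371 genes tested other than class markers, 730 passed, a share of 5.90%, with 490 higher (3.96%) and 240 lower (1.94%) in TE-like cells. The 2 of 37 genes make 5.41%, near that background. At an unadjusted p below 0.05 there were 6 of the 37, or 16.2%, against 19.6% of all genes. The median log2 fold change of TE-like over ICM-like cells was -0.14 for the 37 genes and -0.0022 for all genes, and 25 of the 37 lay below 0, against 50.2% of all genes. In each of the 3 libraries 16 of the 37 (43.2%) were lower in TE-like cells and 3 (8.11%) were higher, against 24.1% and 19.3% of all genes. The 3 that were higher each time, Arid1a, Hdac3 and Mta1, did not pass the test. Because the classes come from the cells that were tested, the p-values leave out the uncertainty of drawing them.

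**Figure D1:**
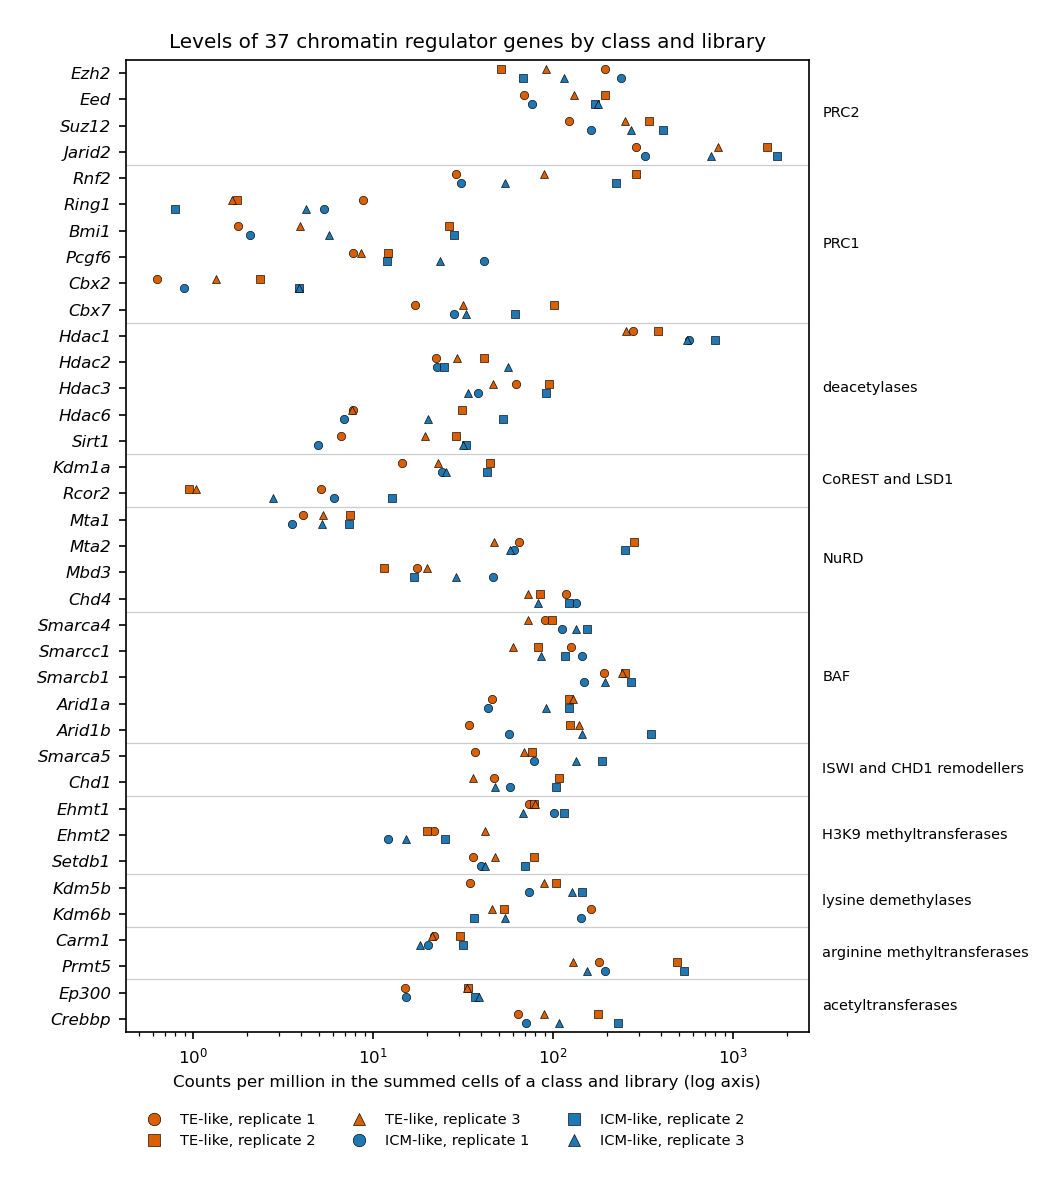
Level of each of the 37 genes (rows, grouped by complex or activity) in CPM on a log axis, with 1 point per class and library; orange points are TE-like and blue points ICM-like cells, and the shape gives the replicate. For Hdac1, Smarca5 and Smarca4 all blue points lie to the right of all orange points, while for most other genes the libraries lie farther apart than the classes.

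The deacetylases hydrolyse acetyl groups on histones and other proteins. Hdac1 stood at 278, 386 and 256 CPM in TE-like cells against 569, 799 and 555 CPM in ICM-like ones, in the order of replicates 1, 2 and 3 that all values follow. Every ICM-like value was above every TE-like value. The means were 307 ± 69.2 CPM (SD, n = 3 libraries) and 641 ± 137 CPM, a fitted 2.0-fold difference (log2 fold change -0.999, SE 0.12; adjusted p = 0.00147 by edgeR with Benjamini-Hochberg). Among single cells the TE-like medians were 239, 347 and 263 CPM and the ICM-like medians 517, 611 and 487 CPM, and 29 of 36, 22 of 31 and 33 of 36 ICM-like cells lay above the TE-like median of their library. Whichever library was left out the call was kept, at adjusted p between 0.00328 and 0.0184 (edgeR, Benjamini-Hochberg). The numbers called among the 37 were 2, 3 and 1 without replicate 1, 2 and 3, where 3.86%, 4.41% and 1.81% of all genes were called. A list of 15 S phase genes, read as a sign of proliferation, summed to 2408, 9251 and 3538 CPM in TE-like cells against 2125, 8734 and 3670 CPM.

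Hdac2, the close paralog that pairs with HDAC1 in the same complexes, had 22.3, 41.3 and 29.2 CPM in TE-like cells against 22.6, 24.9 and 56.3 CPM. The classes overlapped, replicate 2 was higher in TE-like and replicate 3 in ICM-like cells, and the test did not pass (log2 fold change -0.014, SE 0.37; adjusted p = 0.99 by edgeR with Benjamini-Hochberg). Whether the class differences of the paralogs differ from each other was not tested. Hdac3, the catalytic subunit of the NCoR and SMRT corepressors, had 62.2, 95.3 and 46.4 CPM in TE-like cells against 38.3, 91.6 and 33.8 CPM. It was higher in TE-like cells of each library by a margin that did not pass (log2 fold change 0.47, SE 0.23). Hdac6, a cytoplasmic tubulin deacetylase, and Sirt1, an NAD-dependent deacetylase, did not pass either, with log2 fold changes of -0.62 (SE 0.43) and -0.11 (SE 0.39). Hdac6 ranged from 6.95 to 53.1 CPM over classes and libraries, and Sirt1 from 4.97 to 32.9 CPM.

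**Figure D2:**
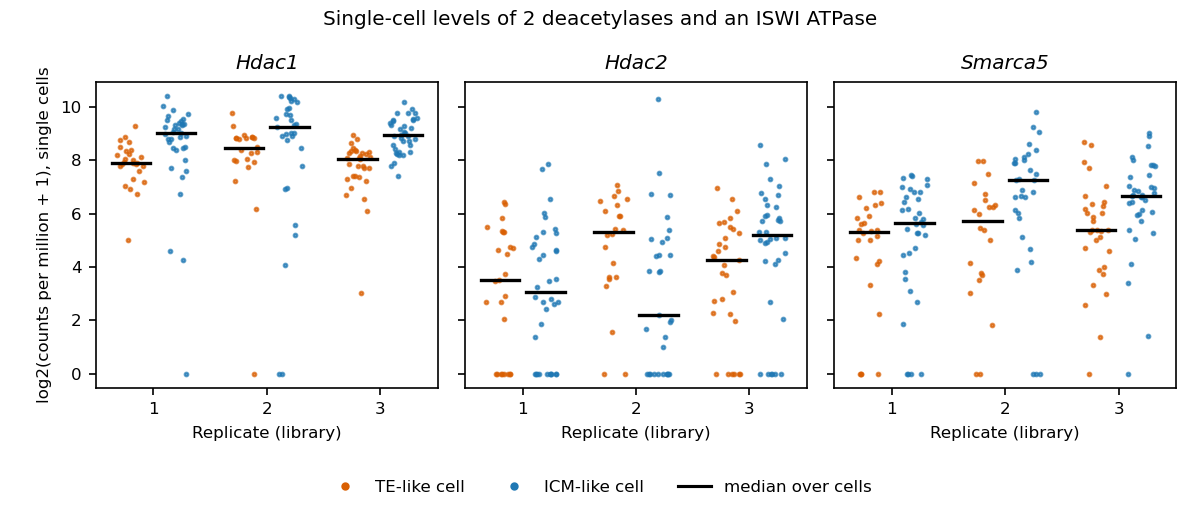
Single-cell levels of Hdac1, Hdac2 and Smarca5 as log2(CPM + 1), with 1 point per cell, split by replicate and class; black bars are medians over cells. The Hdac1 and Smarca5 medians are higher in ICM-like cells of each replicate, and those of Hdac2 change order between replicates.

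Remodellers of the ISWI and CHD families space or assemble nucleosomes. Smarca5, which encodes the ISWI ATPase SNF2H, had 36.9, 76.6 and 68.9 CPM in TE-like cells against 78.7, 189 and 135 CPM in replicates 1 to 3. The lowest ICM-like library lay just above the highest TE-like one. The means were 60.8 ± 21.1 CPM (SD, n = 3 libraries) and 134 ± 55.02 CPM, a fitted 2.08-fold difference (log2 fold change -1.05, SE 0.19; adjusted p = 0.0113 by edgeR with Benjamini-Hochberg). Without replicate 3 the call was lost (log2 fold change -1.11; adjusted p = 0.081 by edgeR with Benjamini-Hochberg), and it was kept without replicate 1 or without replicate 2. Among cells, 21 of 36, 24 of 31 and 29 of 36 ICM-like cells were above the TE-like median of their library. By sets of 32 consecutive barcode numbers within a library, Smarca5 was higher in TE-like cells in 1 of 9 sets and Hdac1 in 0. The second set of replicate 1 held only 1 TE-like cell against 8 ICM-like cells. In replicate 3 the first set (16 TE-like and 6 ICM-like cells) had 38.3 against 46.9 CPM. The second set (11 and 10 cells) had 43.5 against 119 CPM, and the third (4 and 20) 237 against 166 CPM. The part of this uneven spread of classes over sets in the difference was not tested. TE-like cells were deeper, with median totals of 318402, 588066 and 813233 counts against 263847, 287157 and 595470. With every cell thinned to 50000 counts, which left out 1 TE-like and 8 ICM-like cells, the log2 fold changes were -0.94 for Hdac1 and -0.82 for Smarca5 (adjusted p = 0.000138 and 0.0333 by edgeR with Benjamini-Hochberg). Of the 37 genes 32 could be tested there and 3 were called, against 9.69% of all genes tested. In GENCODE M21 on mm10, Hdac1 (ENSMUSG00000028800) lies on chromosome 4 from 129516104 to 129542713 and shares no exon with another gene. Smarca5 (ENSMUSG00000031715) lies on chromosome 8 from 80698507 to 80739497 and shares exon sequence with Gm45872 on the same strand, whose symbol has no counts of its own. Chd1, a remodeller that binds methylated histone H3 at active promoters, had 47.1, 109 and 35.96 CPM in TE-like cells against 57.6, 104 and 47.6 CPM and did not pass.

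The core of PRC2 consists of the methyltransferase EZH2, its activator EED, which binds the methyl mark, and SUZ12, the scaffold, and JARID2 is an accessory subunit that helps recruit it. Ezh2 had 195, 51.4 and 92.1 CPM in TE-like cells against 240.0, 67.9 and 115 CPM. It was slightly lower in TE-like cells of each library, and the libraries differed more than the classes did (log2 fold change -0.28, SE 0.16; adjusted p = 0.391 by edgeR with Benjamini-Hochberg). Suz12 was likewise lower each time, with 122, 342 and 252 CPM in TE-like cells against 162, 410.4 and 272 CPM (log2 fold change -0.19, SE 0.13), without passing. Eed had 68.8, 195 and 131 CPM in TE-like cells against 76.4, 172 and 178 CPM, and its direction differed between libraries. Jarid2 had the smallest class difference of the 37 genes, with 291, 1552 and 832 CPM in TE-like cells against 325, 1772 and 756 CPM (log2 fold change -0.0031, SE 0.11). Its highest library was 5.33 times the lowest within TE-like and 5.46 times within ICM-like cells.

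Of 5 other PRC2 genes tested from a wider list, 2 (40.0%) passed, in opposite directions, and 3, Ezh1, Phf19 and Rbbp4, did not. Over all genes 5.90% passed. An unadjusted p below 0.05 in edgeR was found for 4 of the 5 (80.0%), against 19.6% of all genes. DESeq2 called 4 (80.0%), Aebp2, Ezh1, Mtf2 and Phf19, the last with few counts, against 13.2% of all genes. Mtf2, a Polycomb-like protein that marks the PRC2.1 form of the complex and brings it to unmethylated CpG islands, was higher in TE-like cells, with 1014, 1035 and 1410 CPM against 498, 396 and 564 CPM. The groups did not overlap, and the fitted difference was 2.48-fold (log2 fold change 1.31, SE 0.11; adjusted p = 0.000224 by edgeR with Benjamini-Hochberg). In single cells, 2 of 36, 2 of 31 and 0 of 36 ICM-like cells exceeded the TE-like median of their library. Aebp2, an accessory subunit of the PRC2.2 form, was lower in TE-like cells, with 40.6, 182 and 99.4 CPM against 100.2, 576 and 211 CPM (log2 fold change -1.28, SE 0.17; adjusted p = 0.00244 by edgeR with Benjamini-Hochberg). Its library values overlapped between classes, and within each library the ICM-like value was above the TE-like one. Both calls were kept whichever library was left out. The 3' end of Mtf2 overlaps Tmed5 on the opposite strand, and with no strand setting stated the counts of that stretch cannot be told apart. Tmed5 itself had 63.4, 134 and 149 CPM in TE-like cells against 55.8, 121 and 199 CPM and did not pass.

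**Figure D3:**
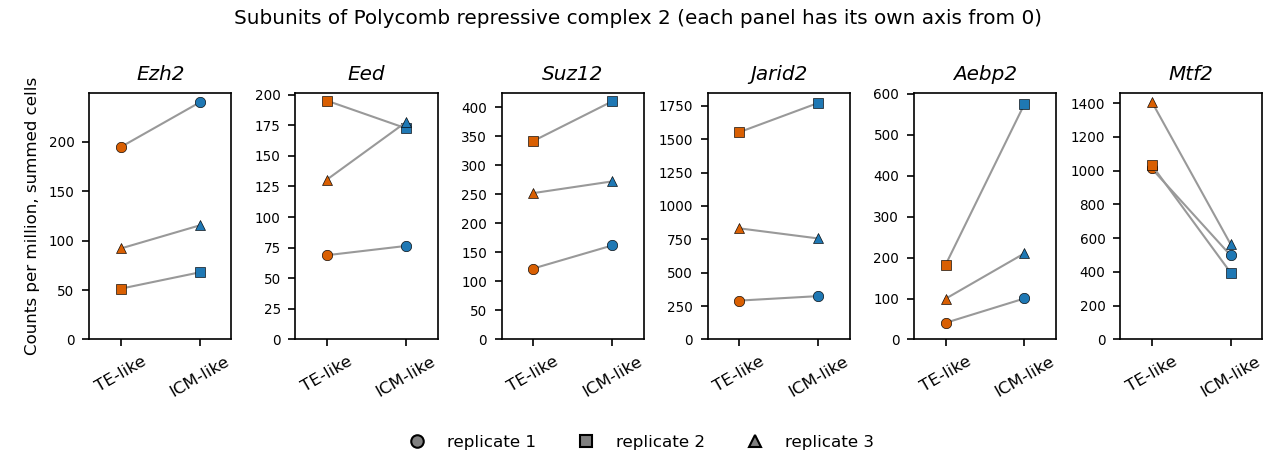
Levels of 6 PRC2 genes in TE-like and ICM-like cells, in CPM of the summed cells, with 1 line per library and a separate axis from 0 for each gene. The Mtf2 lines all fall from TE-like to ICM-like cells, the Aebp2 lines all climb, and the lines of Ezh2, Eed, Suz12 and Jarid2 are set apart by library more than by class.

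As examples, the 250 bases upstream of the RefSeq start (GRCm38.p6) are given for Smarca5, lower in TE-like cells, and Mtf2, higher in them. Whether upstream sequence goes with the direction of a class difference was not tested. The windows are chr8:80739460-80739709 on the minus strand and chr5:108065424-108065673 on the plus strand, written 5′ to 3′, and capitals mark matches to the GC box GGGCGG or its reverse complement, the type of site that SP and KLF factors bind.
Smarca5: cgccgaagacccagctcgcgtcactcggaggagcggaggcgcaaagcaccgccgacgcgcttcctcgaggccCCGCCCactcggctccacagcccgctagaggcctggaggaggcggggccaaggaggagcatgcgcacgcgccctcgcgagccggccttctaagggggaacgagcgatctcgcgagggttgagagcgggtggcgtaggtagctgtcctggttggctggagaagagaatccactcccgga
Mtf2: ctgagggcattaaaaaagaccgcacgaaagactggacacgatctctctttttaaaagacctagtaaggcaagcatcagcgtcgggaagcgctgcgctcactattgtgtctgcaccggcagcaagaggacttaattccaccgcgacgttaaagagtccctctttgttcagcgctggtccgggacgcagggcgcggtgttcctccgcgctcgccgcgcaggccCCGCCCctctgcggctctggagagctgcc
Each window held 1 match, and they held 29 and 23 CpG dinucleotides, with GC contents of 69.2% and 59.2%. Of the 37 genes 31 had a window in the table, and 27 of these, or 87.1%, held the motif on either strand, against 32.7% of all 32851 windows of the same length. The median number of CpG dinucleotides was 21 in the windows of the 31 genes and 6 in all windows. All windows were not limited to genes with counts here or to windows of like CpG number. Whether the contrast is particular to chromatin regulators was therefore not tested. Hdac1 had no window. A match describes letters in the window and not a bound site.

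PRC1 genes varied without a call. Rnf2 and Ring1 encode paralogous E3 ligases of the complex. Rnf2 had 28.98, 289.6 and 89.7 CPM in TE-like cells against 30.99, 224 and 54.2 CPM (log2 fold change 0.41, SE 0.20; adjusted p = 0.298 by edgeR with Benjamini-Hochberg), whereas Ring1 stayed between 0.795 and 8.85 CPM over classes and libraries. Pcgf6, the subunit that defines a variant PRC1 which silences germline genes, had 7.80, 12.2 and 8.57 CPM in TE-like cells against 41.4, 12.01 and 23.5 CPM. Replicates 1 and 3 were lower in TE-like cells and replicate 2 was nearly level, and the test did not pass (log2 fold change -1.22, SE 0.52; adjusted p = 0.232 by edgeR with Benjamini-Hochberg). Without replicate 2 it passed at a log2 fold change of -1.84 (adjusted p = 0.0426 by edgeR with Benjamini-Hochberg). Bmi1, a PCGF subunit of canonical PRC1, reached 26.6 and 28.2 CPM in the TE-like and the ICM-like cells of replicate 2 and 1.79 to 5.68 CPM in the other libraries. The chromobox gene Cbx2 ranged from 0.632 to 3.90 CPM, and Cbx7, for the chromobox subunit typical of pluripotent cells, had 17.2, 101 and 31.5 CPM in TE-like cells against 28.2, 61.4 and 32.8 CPM. Of 17 further PRC1 genes tested from the wider list, edgeR called 0, against 5.90% of all genes, 2 (11.8%) had an unadjusted p below 0.05, against 19.6%, and DESeq2 called 1 (5.88%), Rybp, against 13.2%.

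BAF complexes open chromatin at enhancers. Smarca4, which encodes the ATPase BRG1, had 90.7, 99.2 and 73.2 CPM in TE-like cells against 113, 154 and 135 CPM. The classes did not overlap, yet the gene did not pass (log2 fold change -0.55, SE 0.19; adjusted p = 0.147 by edgeR with Benjamini-Hochberg). Together with Hdac1 and Smarca5 it made 3 of 37 genes, or 8.11%, whose classes did not overlap, against 10.0% of all genes. Arid1b, a DNA-binding subunit, had 34.04, 125 and 139 CPM in TE-like cells against 56.9, 351 and 146 CPM, with the widest gap in replicate 2 (log2 fold change -0.70, SE 0.25; adjusted p = 0.165 by edgeR with Benjamini-Hochberg). DESeq2 called it at an adjusted p = 0.0363, one of 4 of the 37 genes that this tool called, against 13.2% of all genes. Its alternative subunit Arid1a had 45.95, 123 and 129.5 CPM in TE-like cells against 43.6, 123 and 91.6 CPM. The core subunits Smarcc1 and Smarcb1 had log2 fold changes of -0.33 (SE 0.18) and 0.26 (SE 0.16) and did not pass.

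In the wider list the BAF genes held 2 calls among 19 tested, or 10.5%, against 5.90% of all genes. Smarca2, which encodes BRM, the alternative ATPase to BRG1, was lower in TE-like cells, with 6.01, 5.80 and 4.22 CPM against 16.4, 54.1 and 23.3 CPM (log2 fold change -2.32, SE 0.48; adjusted p = 0.0247 by edgeR with Benjamini-Hochberg). Over single cells the TE-like medians were 0 in each library and the ICM-like medians 0.943, 2.99 and 6.78 CPM, while the highest ICM-like cells reached 247, 309 and 275 CPM. The call of this sparse gene was lost without replicate 2 and without replicate 3 (adjusted p = 0.106 and 0.175 by edgeR with Benjamini-Hochberg). Ss18, a BAF subunit known from its fusion in synovial sarcoma, was higher in TE-like cells, with 130.1, 774 and 235 CPM against 73.999, 472 and 169.7 CPM (log2 fold change 0.73, SE 0.14; adjusted p = 0.017 by edgeR with Benjamini-Hochberg). That call was lost without replicate 1 and without replicate 2 (adjusted p = 0.0664 and 0.0745 by edgeR with Benjamini-Hochberg).

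NuRD joins deacetylases to the remodeller CHD4 and to MTA and MBD subunits. Chd4 had 118, 84.6 and 73.03 CPM in TE-like cells against 134, 124 and 82.5 CPM (log2 fold change -0.23, SE 0.18). Mbd3, a subunit needed for ICM cells to form epiblast, had 17.6, 11.6 and 19.96 CPM in TE-like cells against 46.6, 17.02 and 28.9 CPM (log2 fold change -0.76, SE 0.34; adjusted p = 0.263 by edgeR with Benjamini-Hochberg). Both were lower in TE-like cells of each library without passing. Mta2 stood at 283 and 251 CPM in the 2 classes of replicate 2, TE-like first, against 47.4 to 64.9 CPM elsewhere (log2 fold change 0.055, SE 0.18), and Mta1 was at 3.58 to 7.49 CPM. Kdm1a, the histone demethylase LSD1 of CoREST, had 14.5, 45.003 and 22.9 CPM in TE-like cells against 24.1, 43.1 and 25.4 CPM. Its corepressor Rcor2 had 5.16, 0.954 and 1.04 CPM in TE-like cells against 6.06, 12.8 and 2.77 CPM (log2 fold change -1.67, SE 0.96; adjusted p = 0.392 by edgeR with Benjamini-Hochberg). The log2 fold change was -0.74 without replicate 2 and -2.52 without replicate 1, neither passing, and 20.9% of all cells had a count of Rcor2. Of the 15 further NuRD and CoREST genes tested from the wider list, edgeR called 0, against 5.90% of all genes, 2 (13.3%) had an unadjusted p below 0.05, against 19.6%, and DESeq2 called 1 (6.67%), Gse1, against 13.2%.

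Of the 3 methyltransferases of histone H3 lysine 9 and the 2 lysine demethylases grouped with them here, edgeR called 0, against 5.90% of all genes, and 1 of 5 (20.0%), Kdm5b, had an unadjusted p below 0.05, against 19.6%. Ehmt2 and Ehmt1 encode partner methyltransferases of histone H3 lysine 9. Ehmt2 had 21.9, 19.9 and 42.1 CPM in TE-like cells against 12.1, 25.2 and 15.3 CPM (log2 fold change 0.73, SE 0.42), and Ehmt1 had 74.2, 78.1 and 79.8 CPM in TE-like cells against 102, 116 and 68.6 CPM (log2 fold change -0.20, SE 0.21). Setdb1, the methyltransferase that silences retroelements through TRIM28, had a log2 fold change of 0.14 (SE 0.23). Trim28 itself, from the wider list, was lower in TE-like cells, with 68.3, 145 and 96.4 CPM against 131, 201 and 197 CPM (log2 fold change -0.74, SE 0.18; adjusted p = 0.0406 by edgeR with Benjamini-Hochberg). That call was lost without replicate 1 and without replicate 3 (adjusted p = 0.138 and 0.26 by edgeR with Benjamini-Hochberg). Kdm5b, a demethylase of histone H3 lysine 4, had 34.8, 105 and 89.4 CPM in TE-like cells against 73.3, 145 and 128 CPM, lower in TE-like cells of each library (log2 fold change -0.62, SE 0.20; adjusted p = 0.11 by edgeR with Benjamini-Hochberg). DESeq2 called Kdm5b at an adjusted p = 0.0374. Kdm6b, which removes the Polycomb methyl mark, had 164, 53.3 and 45.7 CPM in TE-like cells against 143, 36.6 and 54.6 CPM and did not pass.

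Arginine methyltransferases and acetyltransferases completed the set. Carm1, an arginine methyltransferase linked to ICM fate in early blastomeres, had 21.9, 30.3 and 21.3 CPM in TE-like cells against 20.3, 31.6 and 18.3 CPM, with classes close in each library (log2 fold change 0.16, SE 0.32). Prmt5, which methylates arginines symmetrically, had 179.9, 491 and 129.5 CPM in TE-like cells against 194, 534 and 154 CPM (log2 fold change -0.095, SE 0.13). The paralogous acetyltransferase genes Ep300 and Crebbp were close too. Ep300 had 15.2, 33.8 and 33.3 CPM in TE-like cells against 15.3, 36.9 and 38.9 CPM (log2 fold change -0.057, SE 0.30). Crebbp had 64.3, 178 and 89.8 CPM in TE-like cells against 71.3, 231 and 108 CPM (log2 fold change -0.20, SE 0.17). These 4 genes did not pass. The 3' ends of Carm1 and Rnf2 overlap the neighbours Yipf2 and Trmt1l on the opposite strand, and Bmi1 shares 3' sequence with Gm5946, so their counts are less certain. Anywhere in the gene, 10 of the 37 had an exon overlap on the opposite strand and 5 on the same strand. The 10 were Ezh2, Eed, Suz12, Rnf2, Cbx7, Sirt1, Smarcc1, Setdb1, Kdm6b and Carm1, and no strand setting was stated.

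**Figure D4:**
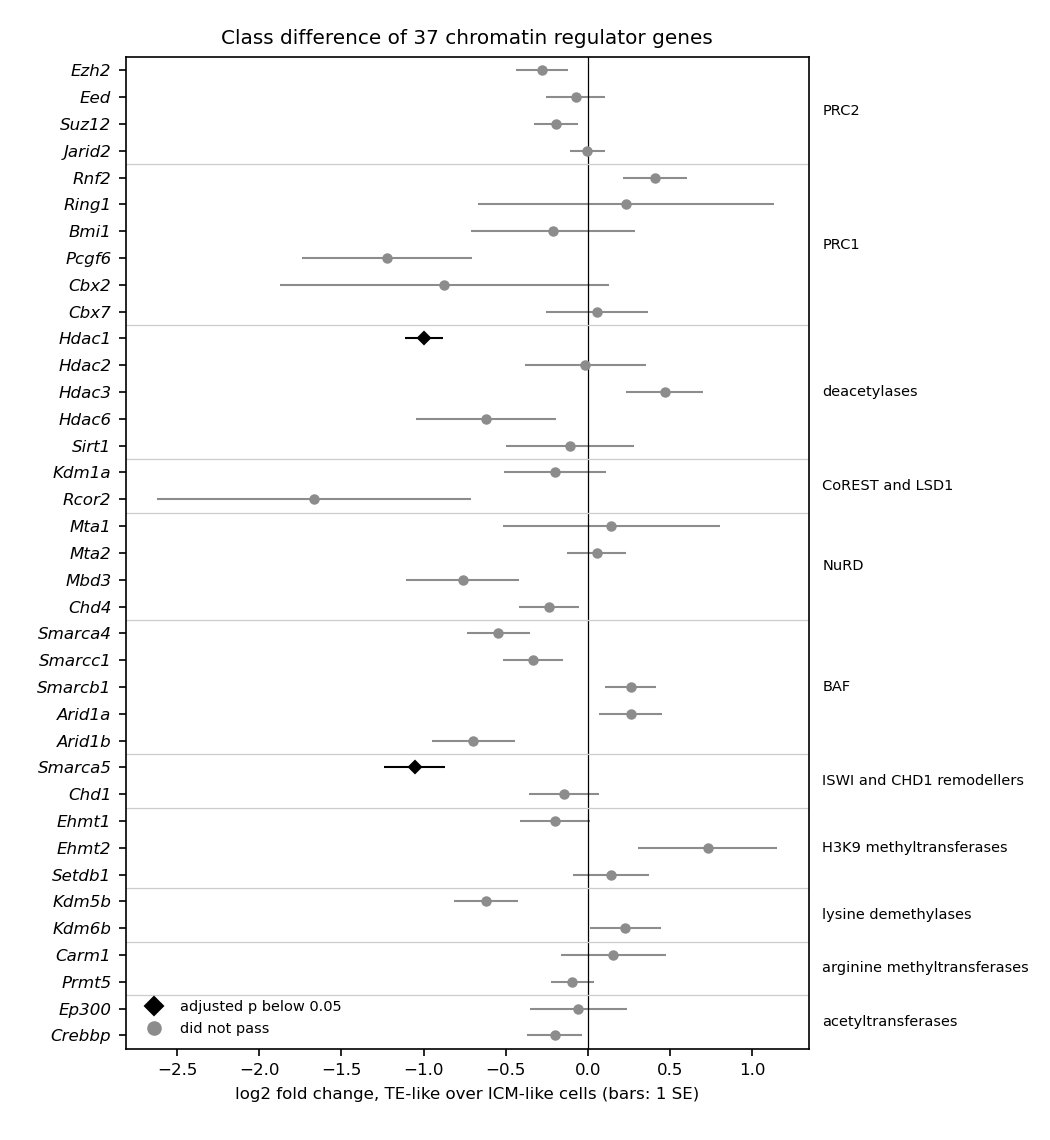
Class difference of each of the 37 genes as log2 fold change of TE-like over ICM-like cells, with bars of 1 SE; black diamonds passed the test and grey points did not. Hdac1 at -0.999 and Smarca5 at -1.05 are the 2 diamonds, and 25 of the 37 points lie below 0.

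A wider list of 149 related genes gives the rest of these complexes. Of its 144 genes in the files 137 were tested, of which 3 were higher in TE-like cells, 4 were lower and 130 did not pass, a called share of 5.11% against 5.90% of all genes. Besides Mtf2, Aebp2, Smarca2, Ss18 and Trim28 the calls were Baz2b and Sin3b. Baz2b, a bromodomain protein of the BAZ family, was lower in TE-like cells, with 59.3, 86.3 and 37.9 CPM against 144, 196 and 73.2 CPM (log2 fold change -1.07, SE 0.18; adjusted p = 0.00914 by edgeR with Benjamini-Hochberg). Sin3b, a scaffold for HDAC1 and HDAC2, was higher, with 223, 66.7 and 176 CPM in TE-like cells against 152, 39.8 and 105 CPM (log2 fold change 0.75, SE 0.16; adjusted p = 0.0261 by edgeR with Benjamini-Hochberg). Both calls were lost without replicate 1, at adjusted p = 0.0557 and 0.124, and without replicate 3, at 0.0502 and 0.173, and Sin3b was also lost without replicate 2, at 0.0541 (edgeR, Benjamini-Hochberg). Rbbp7, a histone-binding subunit of PRC2, NuRD and Sin3, was listed at 0 in all libraries.

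Libraries of the same label spanned a wider range than the fitted class fold for most of the 37 genes. The ratio of the highest to the lowest library had a median of 2.82 within TE-like and 2.54 within ICM-like cells, while the median class fold was 1.18. For 33 of 37 genes the ratio between libraries exceeded the class fold in both classes. The exceptions were Hdac1, Pcgf6, Smarca4 and Ehmt1. For Smarca5 the margin was narrow, at 2.0758 within TE-like cells against a fold of 2.0753. The ratio spans single values of 3 libraries while the fold is fitted over all of them, so the measures are unlike. Replicate 2 was the highest library in both classes for 22 genes. It is also the library with the low ribosomal protein share, and the part of that share in these levels was not tested. Neither the 33 nor the 22 was counted over all genes, so neither is read as a trait of the 37. A count was found in over 90% of cells for 14 genes and in under 50% for 7, namely Cbx2 (10.7%), Rcor2 (20.9%), Bmi1 (28.9%), Mta1 (29.3%), Ring1 (29.8%), Hdac6 (46.7%) and Pcgf6 (49.8%).

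The 37 genes were also set side by side in the 21 unnamed cells of replicate 1 and the 62 TE-like and ICM-like cells of that library, without a test because all come from 1 library. Quartile ranges were apart for 4 of 37 genes (10.8%) that were lower in the unnamed cells, against 17.5% of all genes, and for 1 of 37 (2.70%) that was higher, against 4.97%. Of these cells 20 had barcode numbers from 33 to 64, and no source used here says what the numbers stand for. Median depth was alike in unnamed and named cells, with median totals of 263160 and 289596 counts and 7547 and 7486 genes. Totals ranged more widely in the unnamed cells, from 7098 to 1553733 counts, against 15493 to 991013 in the named cells. The part of this spread in the values was not tested. Smarcc1, a core BAF scaffold, had a median over cells of 406 CPM (quartiles 250.3 and 838) against 101 CPM (65.1 and 185) in the named cells. Smarcb1, another BAF core subunit, went the other way, with 11.4 CPM (quartiles 0 and 23.8) against 156 CPM (90.8 and 226). Prmt5 had 23.5 CPM (quartiles 9.38 and 42.1) against 174 CPM (97.998 and 224), and Mta2 had 4.78 CPM (quartiles 0 and 10.1) against 49.7 CPM (20.2 and 87.2). Cbx7 had a count in 7 of 21 unnamed and 47 of 62 named cells. The quartile ranges of Carm1, Ezh2 and Suz12 overlapped, with medians of 67.7, 279 and 310.1 CPM against 10.6, 181 and 139.8 CPM. In the unnamed cells ribosomal protein genes took 2.94% of counts, against 21.1% and 21.6% in TE-like and ICM-like cells. A list of 8 oocyte markers, H1foo at 0, summed to 454 CPM against 22.7 and 57.01 CPM, the cumulus and granulosa list to 1066 CPM against 143 and 329 CPM, and the S phase genes to 510.3 CPM against 2408 and 2125 CPM. Their part in these values was not tested.

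**Figure D5:**
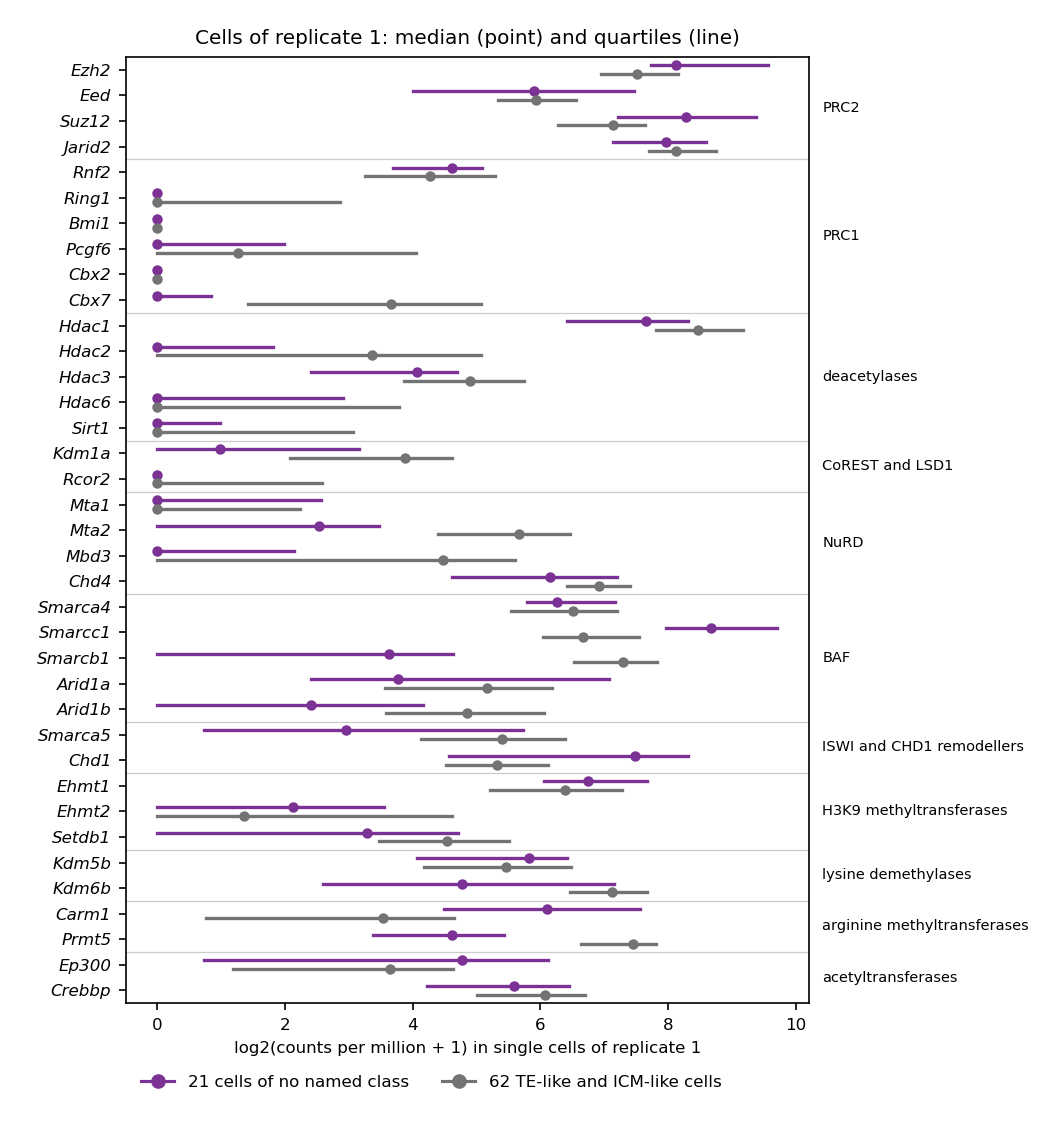
Median (point) and quartiles (line) of each of the 37 genes over single cells of replicate 1, as log2(CPM + 1), for the 21 unnamed cells in purple and the 62 named cells in grey. The lines do not meet for Smarcc1, which is higher in the unnamed cells, and for Cbx7, Mta2, Smarcb1 and Prmt5, which are lower.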

How the data were processed

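Single cells of mouse blastocysts were counted in 3 libraries of 96 barcodes. The deposited values are raw counts per gene symbol and barcode; per the submitters' processing notes CASAVA 1.8, HISAT2 and HTSeq were used on mm10, with no other version, annotation, strand setting or use of molecular identifiers stated there. Counts may thus be reads or molecules, and 3'-end counts say nothing of the rest of a transcript. The members and lists were chosen with earlier results of these data known.

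Cells with 2000 or more genes with a count were clustered on 53 markers (log2 of CPM plus a pseudocount of 1, centred per library, 10 principal components, 15 neighbours, Leiden resolution 0.5, leidenalg 0.10.2). A cluster was named from its higher marker score where that exceeded the other cells by 0.25 and its 10 leading genes did not favour the other class. No doublet caller was run, since cells were picked by hand. A second division of ICM-like cells gave a PrE-like cluster of 57 cells and 46 cells that could not be named. No comparison of EPI-like with PrE-like cells was therefore made. The PrE-like cluster scored 1.095 on PrE markers but also 0.523 on EPI markers. The 20 PrE markers summed to 662, 2599 and 1141 CPM in TE-like cells against 657, 1805 and 928 CPM in ICM-like cells.

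Counts were summed per class and library and tested with edgeR 4.0.16 (quasi-likelihood, filterByExpr, TMM, library as a block, since both classes come from the same libraries) in R 4.3.3, with Benjamini-Hochberg adjustment and a threshold of 0.05. SE is the log2 fold change over the square root of F. The script was tested on simulated data. Alternatives used DESeq2 1.42.0 and limma 3.58.1, among others in the closing section. All 37 genes are named; per-library values go to genes that pass, their partners and genes with an absolute log2 fold change of 1 or more, and others were added after their values were seen. Of the wider list up to 10 passing genes are named. Gene positions come from GENCODE M21, promoters from RefSeq. The last 500 transcript bases were compared with other transcripts by BLAST 2.17.0 (95% identity over 150 bases).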

Additional observations from a re-analysis of the deposited data

How the results depend on the processing

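Hdac1 was called in 11 of 12 alternatives and Smarca5 in 10 of 12, and both kept their direction in all 12. Without the replicate block edgeR called 0 of all genes, with 687 at an unadjusted p below 0.05, and 0 of the 37. Numbers of genes called moved from 730 to 1636 with DESeq2 and 1892 with each cell weighted equally, and ranged from 226 to 585 when 1 library was left out, lowest without replicate 3. The number among the 37 moved from 2 to 4 with DESeq2 and to 6 with cells weighted equally, where 15.3% of all genes were called, and ranged from 1 to 3 over left-out libraries. Genes higher and lower in TE-like cells were 490 and 240 in the test of the report, 907 and 729 with DESeq2, 176 and 50 without replicate 3, and 1546 and 346 with cells weighted equally. The last setting moved the median log2 fold change of all genes to 0.18, against which its extra calls Rnf2 (0.94), Smarcb1 (0.74), Ehmt2 (1.38) and Prmt5 (0.70) are to be read. In that setting the median of the 37 was 0.13, and 15 of the 37 lay below 0, against 33.7% of all genes. Over left-out libraries the number below 0 ranged from 21 without replicate 3 to 27 without replicate 2, with medians of -0.064 and -0.22.

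Of the 37 genes, 21 kept 1 direction throughout. Log2 fold changes that changed sign over left-out libraries ranged as follows: Eed -0.22 to 0.10, Jarid2 -0.091 to 0.070, Ring1 -0.24 to 1.003, Cbx7 -0.30 to 0.37, Hdac2 -0.42 to 0.44, Sirt1 -0.41 to 0.19, Mta2 -0.025 to 0.21, Ep300 -0.14 to 0.013. The other values of changed sign were Jarid2 0.012, Hdac2 0.0013 without a filter on low counts, Jarid2 0.013 at Leiden resolution 1.0, Sirt1 0.15, Kdm1a 0.19, Mta2 -0.17, Carm1 -0.27 with cells thinned to 50000 counts, Bmi1 0.0028, Cbx7 -0.22, Sirt1 0.21, Kdm1a 0.067, Mta1 -0.017, Carm1 -0.24, Prmt5 0.13 without cells over 2.5 times their class median, and Jarid2 0.13, Bmi1 0.21, Cbx2 0.0076, Hdac2 0.20, Sirt1 0.38, Kdm1a 0.47, Smarcc1 0.028, Ehmt1 0.44, Prmt5 0.70, Ep300 0.10 with cells weighted equally. Of these, Prmt5 with cells weighted equally passed. The cause was not tested. Single TE-like clusters were not run, because 1 cluster carried that name, and no alternative was run for EPI-like and PrE-like cells. Thinning left 32 of the 37 genes for the test, which limits the sparse genes. Weighting cells equally meant a limma fit on mean log2 values, so its fold changes are on another scale.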

Other observations

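The 11 unnamed cells each of replicates 2 and 3 were shallow, with median totals of 87262 and 42101 counts, and are given as values only. Their Hdac1 levels were 309 and 171 CPM and their Smarca5 levels 123 and 123 CPM. The 17 TE markers summed to 4836 and 4546 CPM in these cells. Of the 1326419 counts of the replicate 2 cells, 630950 came from 1 deep cell, so their summed levels rest largely on it. In the 21 unnamed cells of replicate 1, whose TE markers summed to 456 CPM, Hdac1 was at 234 CPM and Smarca5 at 15.9 CPM.

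DESeq2 called 14 of the 137 wider genes (10.2%), against 13.2% of all genes; 7 of them are those called by edgeR, and the other 7, chosen after their values were seen, follow. Gse1, a CoREST-associated gene, had 1.26, 0.881 and 4.05 CPM in TE-like cells against 18.1, 23.7 and 4.37 CPM (log2 fold change -2.90, SE 1.04; adjusted p = 0.156 by edgeR with Benjamini-Hochberg). Ezh1, the paralog of Ezh2, had 14.4, 24.2 and 12.2 CPM in TE-like cells against 29.1, 55.8 and 22.5 CPM, lower in TE-like cells of each library (log2 fold change -0.96, SE 0.31; adjusted p = 0.121 by edgeR with Benjamini-Hochberg). Rybp, which stimulates variant PRC1, had 19.8, 96.4 and 41.2 CPM in TE-like cells against 27.1, 170.2 and 88.7 CPM, also lower each time (log2 fold change -0.73, SE 0.23; adjusted p = 0.0989 by edgeR with Benjamini-Hochberg). Sirt2, a tubulin deacetylase, had 20.9, 39.1 and 38.7 CPM in TE-like cells against 11.03, 32.2 and 4.37 CPM, higher each time (log2 fold change 1.47, SE 0.55; adjusted p = 0.176 by edgeR with Benjamini-Hochberg). Dpf3, a BAF subunit, had 17.2, 31.9 and 24.04 CPM in TE-like cells against 40.7, 83.5 and 34.4 CPM (log2 fold change -0.98, SE 0.29; adjusted p = 0.0885 by edgeR with Benjamini-Hochberg). Phf8, a histone demethylase, had 3.90, 12.99 and 8.71 CPM in TE-like cells against 10.7, 30.5 and 21.2 CPM (log2 fold change -1.25, SE 0.42; adjusted p = 0.134 by edgeR with Benjamini-Hochberg). Phf19, a Polycomb-like PRC2 subunit, had 12.5, 1.32 and 9.04 CPM in TE-like cells against 7.05, 0.0800 and 0 CPM, with few counts (log2 fold change 3.92, SE 1.59; adjusted p = 0.21 by edgeR with Benjamini-Hochberg).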
